A study of Mus musculus with 25 samples.

Results

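The glutathione and Nrf2 antioxidant genes described here are 38 listed genes, all found by symbol among the 24984 genes of the count table. They are soluble and microsomal glutathione transferases (Gst and Mgst genes), the enzymes that make and reduce glutathione, the glutathione peroxidases, 5 enzymes known to respond to Nrf2, and the genes of Nrf2 (Nfe2l2) and of its inhibitor Keap1. The list was made from what the genes encode, with earlier results of these data known. The study compared mouse hepatic progenitors that carry different amounts of oncogenic H-Ras, in culture and in the tumours they form. RNA was sequenced from 9 cultures and from 16 samples of cells sorted from tumours of 4 mice.

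The cultured cells were BMEL cells, bipotential progenitors isolated from the embryonic liver of the C57B/6_C3H mouse background and derived from 1 clone. The 3 BMEL WT cultures are the control, labelled as carrying an empty vector and called parental in the study's text. The 3 RasLOW and 3 RasHIGH cultures came from populations transduced with human H-Ras G12V together with a fluorescent protein and sorted for weak or strong fluorescence, so that the Ras levels of both populations overlap. All 9 cultures were grown on collagen-coated plates. The tumours were grown in athymic nude mice, which lack T cells, after injection of Ras-carrying BMEL cells into the liver. From each mouse, fluorescent tumour cells and non-fluorescent stromal cells of the host were sorted from the liver tumour and from the peritoneal tumour. Which of the Ras populations gave rise to the sequenced tumours is not given in the labels.

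Glutathione is a tripeptide that cells make in successive steps, first by glutamate-cysteine ligase (the catalytic subunit Gclc and the modifier Gclm) and then by glutathione synthetase (Gss). Its supply depends on cystine taken up by the antiporter Slc7a11, and its reduced form is restored by glutathione reductase (Gsr) with NADPH, a product of glucose-6-phosphate dehydrogenase (G6pdx). Glutathione transferases couple it to electrophiles, many of which are drugs and their products in hepatocytes, while glutathione peroxidases use it to remove peroxides. The transcription factor Nrf2 is held at low levels by Keap1 and, when released, activates many of these genes through the antioxidant response element of their promoters.

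The core of the antioxidant response element was searched as TGACNNNGC on both strands of the RefSeq promoters of GRCm38.p6, each holding 250 bases before and 50 after a transcription start. The match is a description of letters and not evidence of binding. At least 1 match was present in 10 of the 33 members with a promoter sequence (30.3%) and in 3781 of 27025 genes in all (14.0%). The members with a match were Gsta3, Gstm5, Gstm7, Mgst1, Gclm, Txnrd1, Srxn1, G6pdx, Nfe2l2 and Prdx1. No promoter sequence was at hand for Gsta4, Gstt2, Gclc, Gsr and Hmox1. The windows that follow, each centred on the match, are shown for 6 members with a match before the start, so that the transferases that were lowest under Ras (Gsta3 and Mgst1) can be read beside genes of glutathione synthesis, NADPH supply and the thioredoxin system. Letters run 5′ to 3′ on the strand of the gene, and capitals mark the match, which reads TGACNNNGC in Gsta3 and its reverse complement in the other 5.
Gsta3: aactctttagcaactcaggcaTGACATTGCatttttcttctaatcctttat
Mgst1: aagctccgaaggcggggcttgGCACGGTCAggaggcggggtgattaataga
Gclm: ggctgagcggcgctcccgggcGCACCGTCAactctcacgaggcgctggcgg
Txnrd1: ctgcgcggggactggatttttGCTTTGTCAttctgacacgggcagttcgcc
G6pdx: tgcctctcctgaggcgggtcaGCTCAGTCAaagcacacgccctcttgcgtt
Prdx1: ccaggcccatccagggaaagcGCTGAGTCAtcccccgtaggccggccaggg
On GRCm38.p6 these windows lie at chr1:21240443-21240493 (plus strand) for Gsta3, chr6:138140450-138140500 (plus strand) for Mgst1, chr3:122245402-122245452 (plus strand) for Gclm, chr10:82859093-82859143 (plus strand) for Txnrd1, chrX:74428908-74428958 (minus strand) for G6pdx and chr4:116685445-116685495 (plus strand) for Prdx1. In each the centre of the match is upstream of the start, by 117 bases in Gsta3, 52 in Mgst1, 130 in Gclm, 88 in Txnrd1, 53 in G6pdx and 129 in Prdx1.

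Total counts per library ran from 20818989 to 51241336, and levels are given as CPM, the counts scaled to a common library size with TMM factors over all 25 libraries. Markers of hepatic progenitors and epithelium (9 genes) summed to 7630 to 10925 CPM in the cultures, 8482 to 11733 CPM in the sorted tumour cells and 711 to 1681 CPM in the stroma, while 5 leukocyte markers summed to 26.4 to 93.8 CPM in tumour cells and 2186 to 4079 CPM in stroma. The library of peritoneal tumour cells of mouse 1 stood apart by its summed fibroblast markers (8 genes, 1523 CPM against 220 to 339 CPM in mice 2 to 4), and the peritoneal stroma of the same mouse by its neutrophil markers (6 genes, 4659 CPM against 243 to 257 CPM). The row of mouse Hras lay between 47.1 and 102 CPM in all cultures, but the transgene is a human cDNA, so this row does not check the labels. Differences between groups are from edgeR's quasi-likelihood test on the counts of the groups compared. A gene was called when its p-value, adjusted by Benjamini-Hochberg over all genes tested, was under 0.05, and p-values measure the spread between these cultures or mice. Genes with too few counts were not tested, and a gene could pass through either group alone. A member that passed in this way could only be called lower in the other group.

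Of the 38 members, 33 reached a mean of 1 CPM in at least 1 of the 7 groups. The other 5 (Gsta2, Gstm3, Gstm6, Gstm7 and the intestinal peroxidase Gpx2) stayed below 1 CPM on average in every group, and 3 of them (Gstm3, Gstm6 and Gpx2) had too few counts to be tested in any comparison. Per kilobase of exon (RPKM), the most abundant members in BMEL WT cells were the omega transferase Gsto1 (328 ± 46.4 RPKM, SD, n = 3), the phospholipid peroxidase Gpx4 (323 ± 13.0 RPKM) and Gsta4 (223 ± 62.5 RPKM), an alpha transferase that conjugates products of lipid peroxidation. In liver tumour cells the order began with the cytosolic peroxidase Gpx1 (187 ± 22.9 RPKM, SD, n = 4), Gpx4 (153 ± 16.7 RPKM) and the peroxiredoxin Prdx1 (126 ± 16.7 RPKM). Liver stroma held Gpx1 at 532 ± 63.5 RPKM, followed by Nfe2l2 (150.0 ± 36.7 RPKM) and the heme oxygenase Hmox1 (123 ± 8.10 RPKM). In peritoneal stroma Gpx1 (456 ± 44.1 RPKM) and the secreted peroxidase Gpx3 (359.5 ± 70.3 RPKM) came first.

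**Figure D1:**
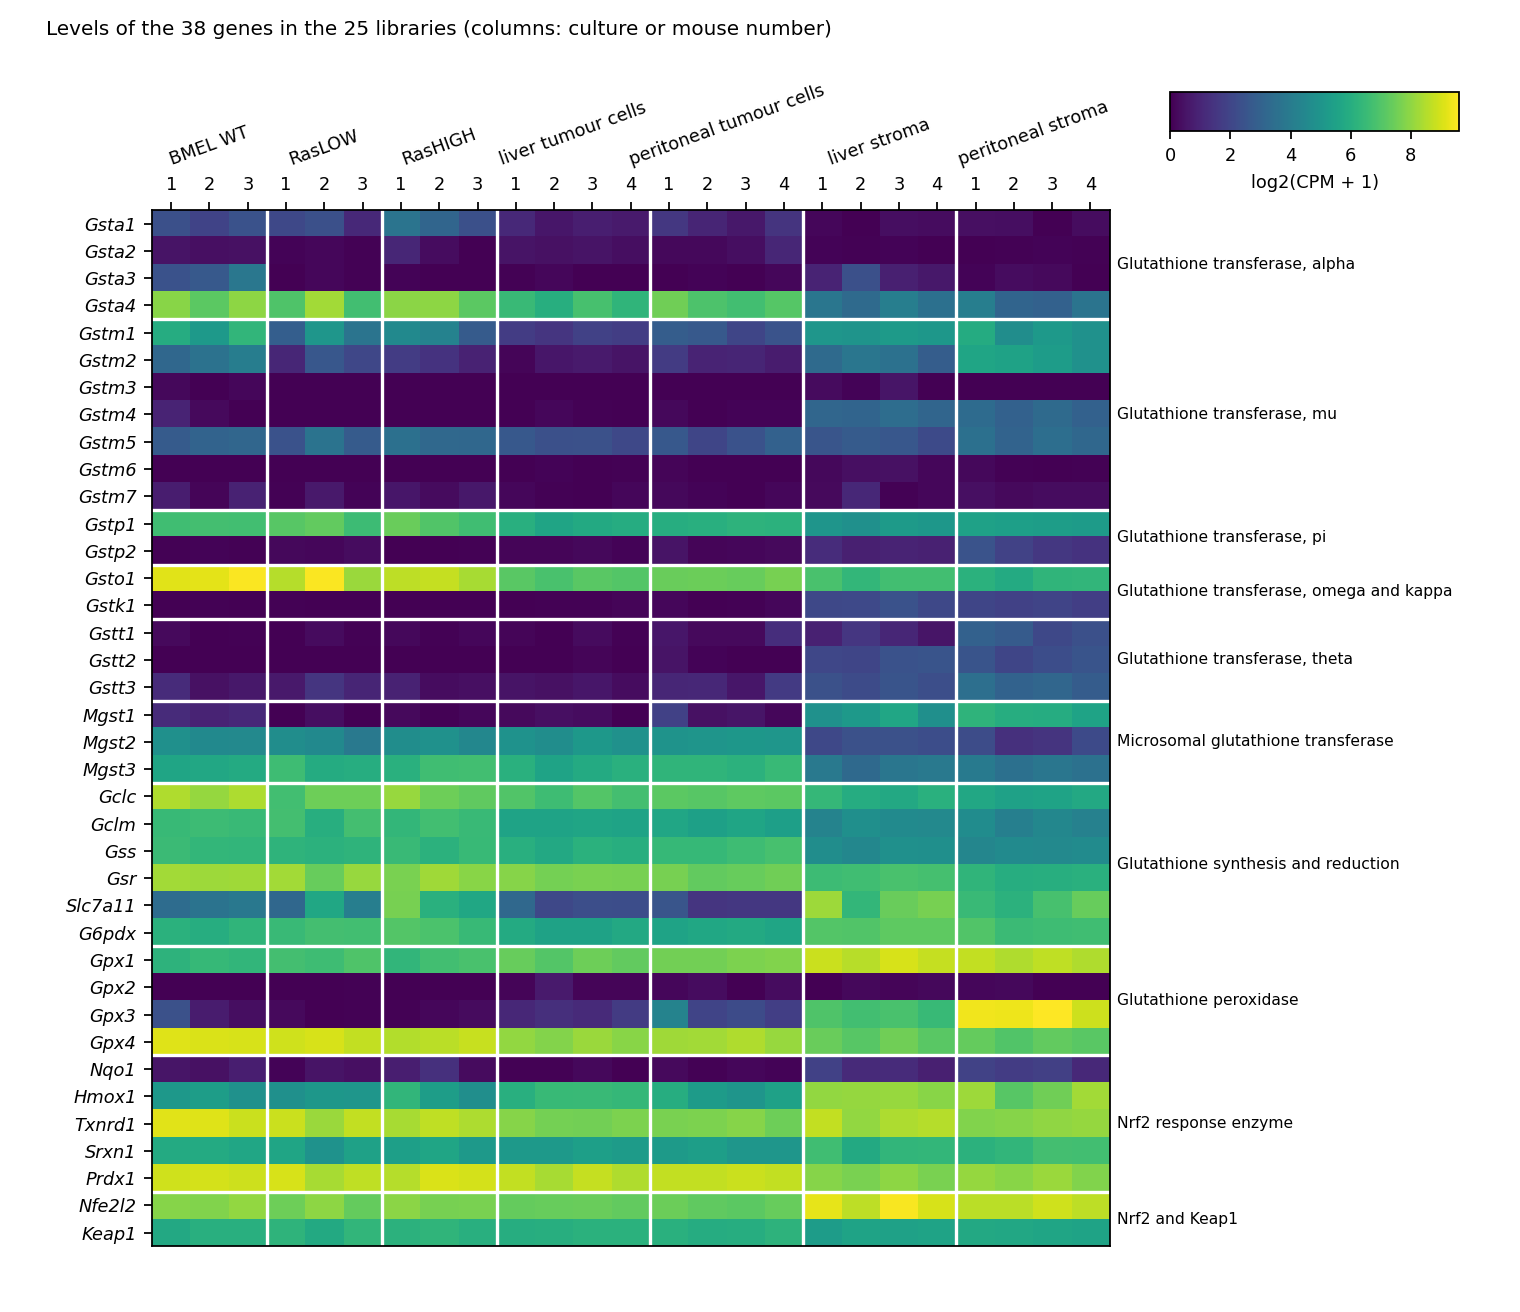
Levels of the 38 members (rows, by role) in the 25 libraries (columns, by group and then culture or mouse number), coloured by log2(CPM + 1). The stroma columns are brighter than the tumour cell columns for Mgst1, Gpx3, Hmox1, Slc7a11 and Nfe2l2 and darker for Gsta4 and Mgst2, and Slc7a11 is also bright in RasHIGH cultures.

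RasLOW cells were set against BMEL WT cells to ask what a low dose of the oncogene does to these genes. Of 28 members tested, none was called higher and 3 were called lower, and over all genes tested 2.06% were called higher and 4.45% lower. The median log2 fold change was -0.26 over the members and 0.01 over all genes. The cultures of the 2 groups did not overlap in 42.9% of the members and 28.5% of all genes tested. The members called lower were Gsta3, Mgst1 and Gclc. Gsta3 and Mgst1 were tested through BMEL WT alone and could only be called lower, and the count and median include them. Gsta3, an alpha class transferase, was at 4.40, 5.51 and 13.0 CPM in the BMEL WT cultures and at 0, 0.131 and 0.0405 CPM in the RasLOW cultures. Every RasLOW culture was far below every control, and only 5 reads of Gsta3 were counted in the 3 RasLOW libraries (log2 fold change -6.91 ± 0.77 SE, edgeR adjusted p = 0.00195). Mgst1, the microsomal transferase that is abundant in adult liver, was already low in BMEL WT cells (1.26, 0.930 and 1.15 CPM) and was at 0, 0.295 and 0 CPM in RasLOW cells, with all 9 reads of the RasLOW libraries in 1 of them (log2 fold change -3.34 ± 0.84 SE, edgeR adjusted p = 0.0495). Gclc was at 350.2, 275 and 347 CPM in BMEL WT and at 105, 178 and 177 CPM in RasLOW cells, without overlap (log2 fold change -1.11 ± 0.24 SE, edgeR adjusted p = 0.0377, 0.464 of the control level). The call of Mgst1 was lost without any 1 of 5 libraries (all but RasLOW 2, edgeR adjusted p = 0.113 to 0.141), and that of Gclc without any of the 3 BMEL WT libraries or RasLOW 3 (0.0783 to 0.124). Leaving out RasLOW 2, whose Gsta4, Gsto1 and Gstm1 levels were above those of the other RasLOW cultures, raised the number of members called to 10, and leaving out BMEL WT 1, BMEL WT 2 or RasLOW 3 lowered it to 1.

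In RasHIGH against BMEL WT cells, 3 of 28 members tested were called higher and 7 lower, while 11.0% of all genes tested were called higher and 12.0% lower. The median log2 fold change was -0.07 over the members and -0.02 over all genes. The cultures of the 2 groups did not overlap in 46.4% of the members and 42.9% of all genes tested. The cystine antiporter Slc7a11 (chr3:50168858-50247535 on mm9) was at 9.60, 11.6 and 13.6 CPM in BMEL WT and at 199, 67.8 and 52.3 CPM in RasHIGH cells. Every RasHIGH culture exceeded every control, although the RasHIGH cultures differed among themselves by more than the controls did (log2 fold change 3.15 ± 0.51 SE, edgeR adjusted p = 0.00564, 8.86-fold). Mgst3, a microsomal transferase with peroxidase activity, was at 49.1, 52.9 and 58.2 CPM in BMEL WT and at 67.9, 101 and 102 CPM in RasHIGH cells (log2 fold change 0.73 ± 0.19 SE, edgeR adjusted p = 0.0333). G6pdx was at 68.8, 62.3 and 77.6 CPM in BMEL WT and 132, 118 and 87.6 CPM in RasHIGH cells (log2 fold change 0.65 ± 0.17 SE, edgeR adjusted p = 0.0347). Both rose in each RasHIGH culture beyond the highest control.

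Among the 7 members called lower in RasHIGH cells were 5 transferases. Of these, Gsta3 and Mgst1 were again tested through BMEL WT alone and could only be called lower, and the count and median include them. Gsta3 was at 0.0758, 0 and 0 CPM, that is 2 reads in 3 libraries against 637 reads in BMEL WT, a ratio of 0.00370 with a 95% counting interval of 0.000448 to 0.0134 (log2 fold change -7.91 ± 0.85 SE, edgeR adjusted p = 0.000295). Mgst1 was at 0.189, 0.0431 and 0.135 CPM (log2 fold change -3.14 ± 0.47 SE, edgeR adjusted p = 0.00322). The mu class genes Gstm1 and Gstm2, which lie close together on chromosome 3 (chr3:107815173-107820891 and chr3:107784620-107789371 on mm9), fell together. Gstm2 went from 8.27, 11.4 and 16.1 CPM in BMEL WT to 2.27, 1.64 and 0.902 CPM in RasHIGH cells (log2 fold change -2.91 ± 0.38 SE, edgeR adjusted p = 0.00240). Gstm1 went from 60.7, 35.0 and 78.5 CPM to 22.7, 18.4 and 5.73 CPM (log2 fold change -1.94 ± 0.50 SE, edgeR adjusted p = 0.0312). Gsto1 was at 586, 601 and 751 CPM in BMEL WT and 403, 432 and 329.9 CPM in RasHIGH cells (log2 fold change -0.77 ± 0.16 SE, edgeR adjusted p = 0.0141). No RasHIGH culture reached the lowest control in any of these 5 genes. The remaining 2 were the selenoproteins Gpx4 (566, 531 and 526 CPM in BMEL WT and 363, 395 and 443 CPM in RasHIGH, log2 fold change -0.47 ± 0.13 SE, edgeR adjusted p = 0.0371) and the thioredoxin reductase Txnrd1 (576, 565 and 459 CPM and 329, 416 and 343 CPM, log2 fold change -0.59 ± 0.15 SE, edgeR adjusted p = 0.0312).

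**Figure D2:**
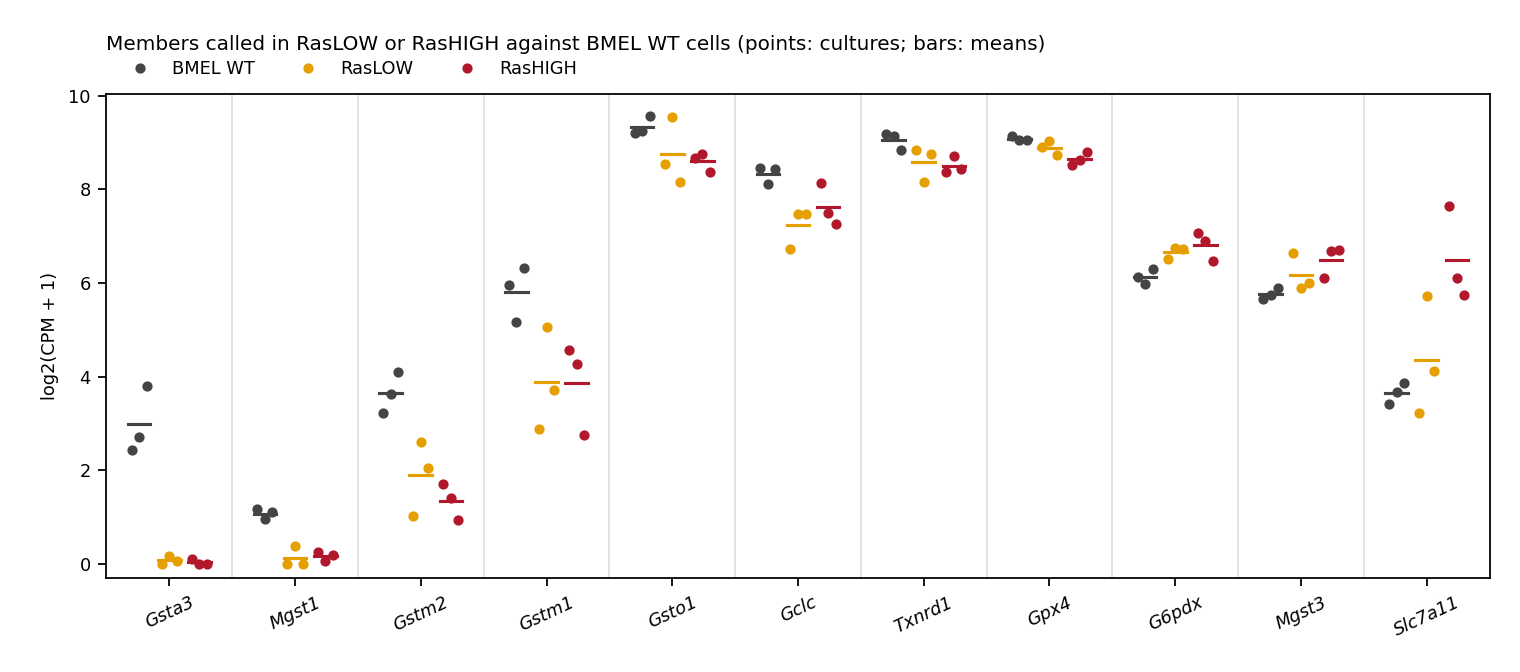
log2(CPM + 1) of the 11 members called in RasLOW or RasHIGH against BMEL WT cells, ordered by their log2 fold change in RasHIGH cells; points are the 3 cultures of each group and bars their means. Gsta3, Mgst1 and Gstm2 lie lower in all 6 Ras cultures than in the controls, and Slc7a11 lies above the controls in every RasHIGH culture and in 2 of the 3 RasLOW cultures.

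The calls of Gsta3, Mgst1, Gstm2 and Slc7a11 in RasHIGH cells were kept without each single library. Those of the others were not: Mgst3 was no longer called without any 1 of 5 libraries (all but RasHIGH 1, edgeR adjusted p = 0.0733 to 0.111), G6pdx and Gpx4 without any BMEL WT library or RasHIGH 2 (0.0652 to 0.130 and 0.0987 to 0.114), Gstm1 without BMEL WT 1, BMEL WT 3 or RasHIGH 2 (0.0760 to 0.0949), Txnrd1 without BMEL WT 1, BMEL WT 2 or RasHIGH 3 (0.0881 to 0.116), and Gsto1 without BMEL WT 3 (0.0532). Between 5 members (without BMEL WT 1) and 12 members (without RasHIGH 1) were called, and 6 without BMEL WT 2, BMEL WT 3 or RasHIGH 2. The label of 2 BMEL WT libraries names sequencing lane 3 and that of the other 7 cultures lane 4. Within lane 4, where 1 BMEL WT library is left and is assumed to vary like the Ras cultures, Gsta3 was called in RasLOW (log2 fold change -7.69, edgeR adjusted p = 0.0144) and Gsta3 and Gstm2 in RasHIGH cells (-8.67 and -3.35, adjusted p = 0.00123 and 0.0275). Slc7a11 had a log2 fold change of 2.91 there (adjusted p = 0.200).

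RasHIGH and RasLOW cells were compared to ask whether the dose of the oncogene matters for these genes. None of 26 members tested was called by edgeR's quasi-likelihood test, and over all genes 0.109% were called higher and 0.0502% lower in RasHIGH cells. At an unadjusted p under 0.05 there were 2 members (1220 of 11962 genes in all), and neither DESeq2 nor the edgeR exact test called a member. The 2 members were Slc7a11, at 8.30, 51.5 and 16.5 CPM in RasLOW and above all of these in RasHIGH cells (log2 fold change 2.04 ± 0.76 SE, edgeR adjusted p = 0.407), and the alpha transferase Gsta1, at 3.20, 4.07 and 1.18 CPM in RasLOW and 12.1, 7.88 and 4.10 CPM in RasHIGH cells (log2 fold change 1.49 ± 0.53 SE, edgeR adjusted p = 0.375). The groups did not overlap in either gene, and among genes tested this held for 7.69% of the members and 15.7% of all genes. Gclc, called lower in RasLOW only, overlapped between both Ras populations (279, 179.6 and 151 CPM, log2 fold change 0.40 ± 0.30 SE, edgeR adjusted p = 0.748, RasHIGH minus RasLOW).

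Among 71 other genes of glutathione and redox metabolism, 65 were tested in cultures. Of these, 2 were called higher and 2 lower in RasLOW cells, 10 higher and 7 lower in RasHIGH cells, and none between RasHIGH and RasLOW cells. The carbonyl reductase Cbr1 fell in both populations (log2 fold change -2.43 in RasLOW and -5.20 in RasHIGH cells), as did Osgin1 (-1.69 and -1.53). The study itself named Cbr1 from these libraries, among genes gradually repressed with Ras. Chac1, which degrades glutathione, rose in both (2.37 and 3.11). Sod2, the mitochondrial superoxide dismutase, rose in RasLOW cells (0.90), and in RasHIGH cells the conjugate exporter Abcc2 rose (3.73) and the carbonyl reductase Cbr3 fell (-2.64).

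In the tumours, the sorted tumour cells and the stroma of the same site differed in nearly all members tested, as they did in most genes. In the liver, 13 of 33 members tested were called higher in tumour cells and 19 lower, against 38.7% and 39.7% of all genes. In the peritoneum, 13 of 32 were higher and 18 lower, against 39.7% and 37.2% of all genes. In the liver the median log2 fold change was -1.47 over the members and 0.00 over all genes. In the peritoneum it was -0.93 over the members and 0.07 over all genes. Tumour cells and stroma did not overlap in 97.0% of the members and 73.5% of all genes tested in the liver. In the peritoneum these shares were 96.9% and 71.8%. Members such as Gsta3, Gstm4, Gstt2, Gstk1 and Nqo1, with at most 8 reads each in liver tumour cells, were tested through stroma alone. The same was true of Gstk1 in the peritoneum, with 9 reads in tumour cells. These members could only be called lower, and the counts and medians include them. The 2 sites are counted on the same 4 mice. Under RLE in place of TMM scaling the median of all genes moved by 0.14 in the peritoneum, from 0.07 to -0.07, and by 0.08 in the liver.

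The enzymes that make and recycle glutathione were higher in tumour cells. Gss was at 66.2, 55.3, 70.5 and 63.8 CPM in liver tumour cells and 25.2, 20.7, 27.1 and 26.7 CPM in liver stroma (log2 fold change 1.33 ± 0.11 SE, edgeR adjusted p = 2.35e-07). In the peritoneum it was at 86.3, 85.5, 97.6 and 111 CPM in tumour cells and 20.1, 23.3, 22.2 and 23.8 CPM in stroma (log2 fold change 2.16 ± 0.11 SE, edgeR adjusted p = 9.83e-07). At either site the lowest tumour sample was well above the highest stroma. Gclc, Gclm and Gsr were also called higher at both sites, with log2 fold changes of 0.76 ± 0.14, 1.03 ± 0.11 and 0.95 ± 0.08 in the liver and 1.59 ± 0.09, 1.28 ± 0.14 and 1.45 ± 0.10 in the peritoneum. The 2 members of this group that bring in cystine and NADPH went the other way. Slc7a11 was at 8.55, 3.22, 3.94 and 3.81 CPM in liver tumour cells and 297, 81.8, 169.9 and 199 CPM in liver stroma (log2 fold change -5.26 ± 0.42 SE, edgeR adjusted p = 1.78e-07). The peritoneal samples showed the same order, with 4.81, 1.77, 1.92 and 1.96 CPM in tumour cells and 90.0, 71.9, 111 and 164 CPM in stroma (log2 fold change -5.32 ± 0.44 SE, edgeR adjusted p = 9.42e-06). G6pdx was lower in tumour cells at both sites (-1.47 ± 0.10 for the liver, -0.98 ± 0.11 for the peritoneum).

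Among the transferases tested in the liver, the 3 theta class genes and the 3 mu class genes called were lower in tumour cells, while the alpha, pi, omega and kappa, and microsomal groups held members of either sign. Mgst1 was at 0.182, 0.311, 0.242 and 0 CPM in liver tumour cells and 28.5, 35.8, 50.1 and 26.9 CPM in liver stroma (log2 fold change -7.55 ± 0.36 SE, edgeR adjusted p = 1.18e-09). Its relative Mgst2, which also takes part in leukotriene synthesis, ran the opposite way, with 28.7, 25.04, 34.3 and 28.3 CPM in liver tumour cells and 3.23, 4.21, 4.24 and 3.85 CPM in stroma (log2 fold change 2.89 ± 0.14 SE, edgeR adjusted p = 1.87e-09). Mgst3 followed Mgst2 (2.25 ± 0.16 in the liver, 2.75 ± 0.12 in the peritoneum). Within the alpha class, Gsta4 was at 90.5, 64.8, 110.5 and 77.9 CPM in liver tumour cells and 12.8, 9.08, 16.2 and 10.8 CPM in stroma (log2 fold change 2.78 ± 0.19 SE, edgeR adjusted p = 5.00e-08), whereas Gsta3 had 6 reads in the 4 liver tumour cell libraries and was at 0.919, 4.03, 0.786 and 0.555 CPM in liver stroma (log2 fold change -5.12 ± 0.95 SE, edgeR adjusted p = 0.000109).

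Several transferases were present in stroma and close to 0 in tumour cells and cultures alike. Gstm4 (6.86 to 9.74 CPM in stroma) did not exceed 0.156 CPM in any tumour cell library, nor Gstk1 (2.40 to 4.41 CPM in stroma) 0.125 CPM. Gstt2 (3.05 to 4.72 CPM in stroma) had no read in any of the 9 cultures. In the liver the log2 fold changes of Gstm4, Gstk1 and Gstt2 were -7.77 ± 0.40, -6.55 ± 0.41 and -6.92 ± 0.48, each resting on 4 or 5 reads in the tumour cell libraries. Gstm2 (-4.68 ± 0.36), Gstm1 (-3.90 ± 0.14), Gstt1 (-3.64 ± 0.64), Gstt3 (-3.47 ± 0.24) and Gstp2 (-3.34 ± 0.39) were lower too. Gstp1, Gsto1 and Gsta1 were higher in tumour cells, with log2 fold changes of 0.83 ± 0.11, 0.37 ± 0.11 and 2.26 ± 0.54 in the liver. Gstm5 was not called in the liver (log2 fold change -0.21 ± 0.19 SE, edgeR adjusted p = 0.339) and was lower in peritoneal tumour cells (log2 fold change -0.83 ± 0.26 SE, edgeR adjusted p = 0.0158). In the peritoneum every transferase tested was called, with the sign it had in the liver, and log2 fold changes ran from -6.62 ± 0.43 for Gstm4 and -6.08 ± 0.78 for Mgst1 to 3.67 ± 0.30 for Mgst2 and 3.74 ± 0.32 for Gsta4. In bulk samples, fewer cells that express a gene and less RNA of it per cell cannot be told apart. By its markers the stroma held RNA of leukocytes, fibroblasts and endothelium. Of 17 hepatocyte markers, 10 were over 1 CPM in every liver stroma library and 3 in every peritoneal one. Markers of hepatic progenitors and epithelium were present in stroma too, at summed levels of 711 to 1681 CPM.

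**Figure D3:**
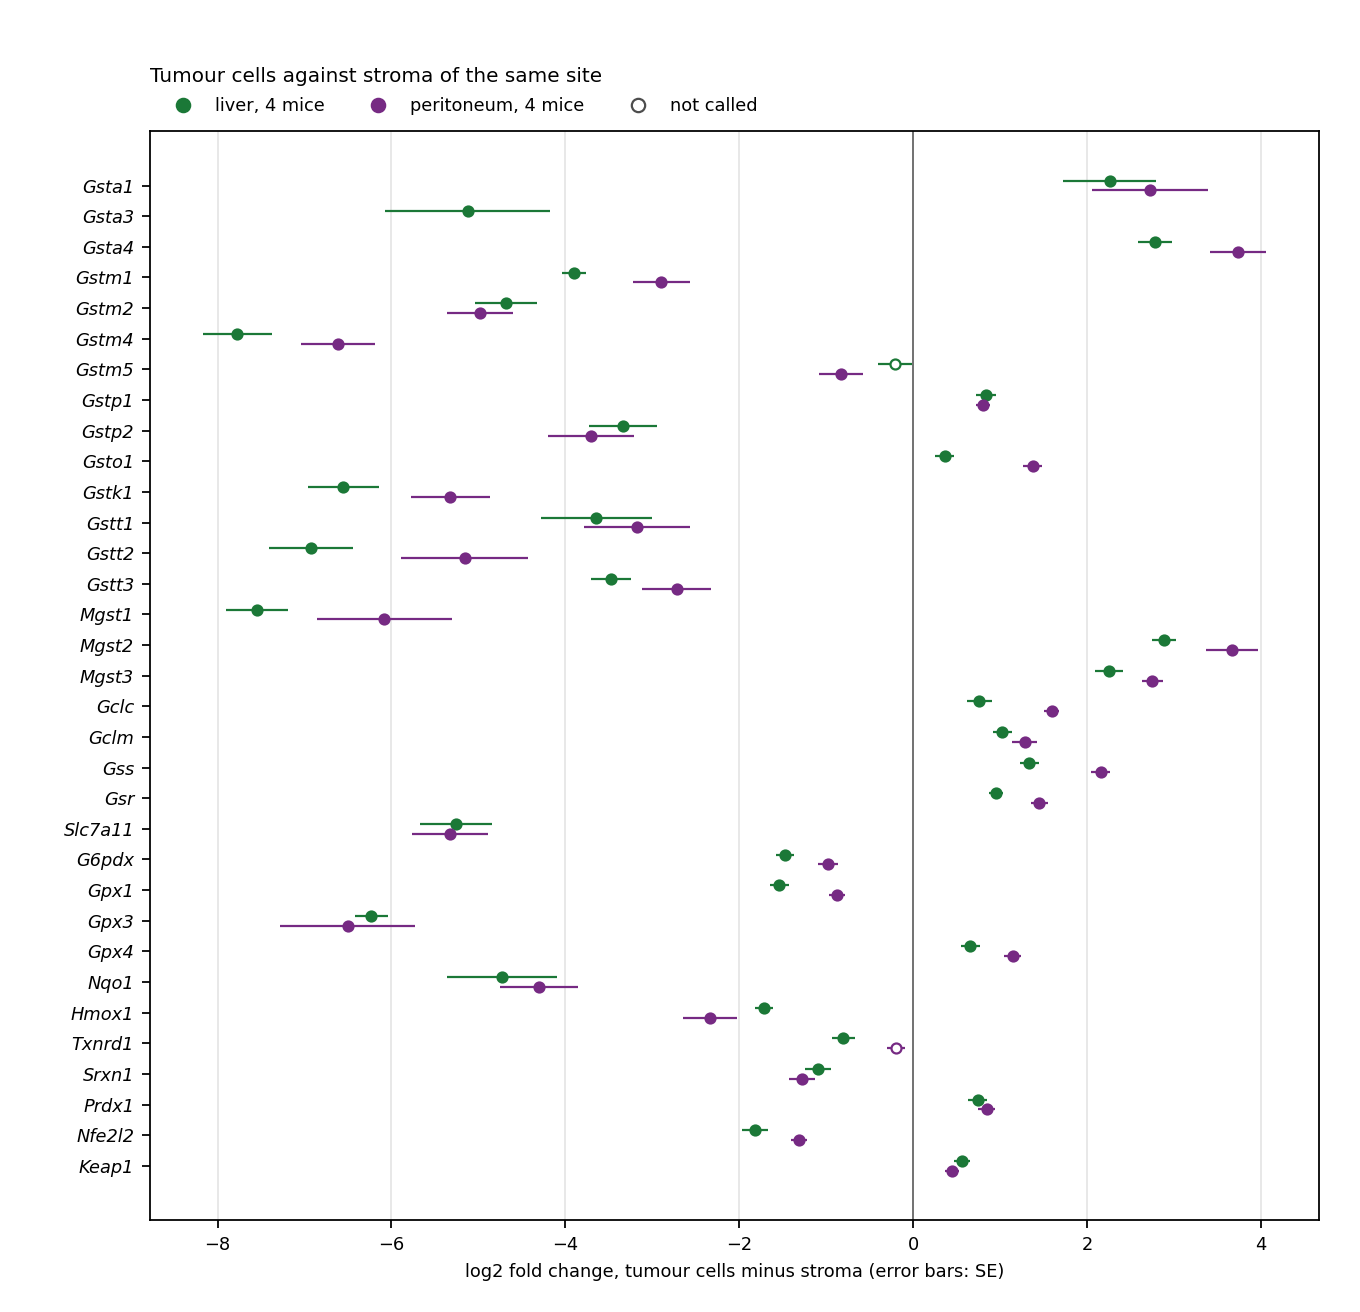
log2 fold change between tumour cells and stroma of the same site for the 33 members tested at either site; points are edgeR estimates over 4 mice, bars their SE, and open points differences that were not called. The glutathione synthesis genes Gclc, Gclm, Gss and Gsr lie to the right of 0 at both sites, and Slc7a11, Nfe2l2, Hmox1 and Nqo1 lie to the left.

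Peroxidases and Nrf2 genes split as well. Gpx3 was at 1.09, 1.44, 1.21 and 2.21 CPM in liver tumour cells and 124, 104, 116 and 87.5 CPM in liver stroma (log2 fold change -6.23 ± 0.19 SE, edgeR adjusted p = 2.78e-11), with a difference of -6.50 ± 0.77 in the peritoneum. Gpx1 was lower in tumour cells at both sites (-1.54 ± 0.11 and -0.87 ± 0.09). Gpx4, which protects membranes from lipid peroxides, was higher (0.66 ± 0.11 and 1.14 ± 0.10). Nfe2l2 was at 161, 167, 171 and 158 CPM in liver tumour cells and 616, 403, 733 and 527 CPM in liver stroma (log2 fold change -1.82 ± 0.15 SE, edgeR adjusted p = 2.65e-07), and at 177, 154, 147 and 165 CPM and 398, 390.3, 482 and 402 CPM in the peritoneum (log2 fold change -1.31 ± 0.09 SE, edgeR adjusted p = 4.29e-06). Keap1 was higher in tumour cells (0.56 ± 0.09 and 0.44 ± 0.08). Hmox1, which degrades heme, was at 66.5, 88.0, 90.9 and 84.3 CPM in liver tumour cells and 265, 272, 284 and 242 CPM in liver stroma (log2 fold change -1.72 ± 0.11 SE, edgeR adjusted p = 1.66e-08), and was lower in peritoneal tumour cells too (-2.34 ± 0.31). Srxn1, which repairs oxidised peroxiredoxins, was lower in tumour cells (-1.09 ± 0.15 and -1.28 ± 0.15), as was the quinone reductase Nqo1 (-4.73 ± 0.63 and -4.30 ± 0.45), a gene that did not exceed 2.69 CPM in any library. Txnrd1 was lower in the liver (log2 fold change -0.80 ± 0.13 SE, edgeR adjusted p = 0.000132) and was not called in the peritoneum (log2 fold change -0.19 ± 0.10 SE, edgeR adjusted p = 0.121). Prdx1 was higher at both sites (0.74 ± 0.11 and 0.84 ± 0.09). Of the other 71 genes, 23 of 68 tested were called higher and 27 lower in liver tumour cells, and 28 and 21 of 69 in peritoneal tumour cells. The largest differences among them were of stromal genes such as Ggt5 (-7.45 and -7.01), which cleaves glutathione conjugates, Gpx7 (-7.15 and -6.71) and the extracellular superoxide dismutase Sod3 (-5.49 and -6.68), together with Cbr3 in the liver (-5.76) and the dipeptidase Dpep1 in the peritoneum (-6.48).

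Liver and peritoneal stroma were compared to ask how the host tissue around the tumour differs between the sites. Of 32 members tested, 5 were called higher in liver stroma and 9 lower, and over all genes 15.3% and 18.8%. The median log2 fold change was 0.03 over the members and 0.02 over all genes. The samples of the 2 sites did not overlap in 34.4% of the members and 34.9% of all genes tested. Gpx3, the peroxidase of plasma and extracellular fluid, was at 124, 104, 116 and 87.5 CPM in liver stroma and 674, 671, 785 and 478 CPM in peritoneal stroma, with a wide gap between the sites (log2 fold change -2.64 ± 0.17 SE, edgeR adjusted p = 4.11e-06). Gstm2 was at 9.11, 12.7, 11.2 and 6.23 CPM in liver and 48.9, 45.0, 38.5 and 28.3 CPM in peritoneal stroma (log2 fold change -2.08 ± 0.23 SE, edgeR adjusted p = 0.000121). Gstt1 was at 0.866, 1.89, 1.02 and 0.476 CPM in liver and 6.83, 5.72, 3.26 and 4.15 CPM in peritoneal stroma (log2 fold change -2.26 ± 0.37 SE, edgeR adjusted p = 0.00127). In all 3 genes every peritoneal sample was above every liver sample. Gstp2, Gstt3, Gstm5, Mgst1, Gstp1 and Keap1 were lower in liver stroma as well, with log2 fold changes of -1.48 ± 0.35, -0.99 ± 0.19, -0.97 ± 0.19, -0.85 ± 0.21, -0.40 ± 0.10 and -0.26 ± 0.09. The sites overlapped in Mgst1, at 28.5, 35.8, 50.1 and 26.9 CPM in liver and 75.8, 63.5, 60.8 and 47.1 CPM in peritoneal stroma, and in Keap1.

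The members higher in liver stroma belonged to glutathione and thioredoxin reduction, apart from 2 transferases. Gsr was at 96.8, 102, 114 and 110.2 CPM in liver and 76.6, 63.4, 64.0 and 67.4 CPM in peritoneal stroma, without overlap (log2 fold change 0.59 ± 0.09 SE, edgeR adjusted p = 0.000608). Gsto1 was at 116, 82.5, 104 and 104 CPM in liver and 69.6, 58.3, 77.2 and 79.1 CPM in peritoneal stroma (log2 fold change 0.47 ± 0.12 SE, edgeR adjusted p = 0.0154). Txnrd1 (0.46 ± 0.14) and G6pdx (0.36 ± 0.11) were higher too, although their samples overlapped between the sites. Gsta3 was at 0.919, 4.03, 0.786 and 0.555 CPM in liver and 0.0747, 0.234, 0.173 and 0 CPM in peritoneal stroma, so the difference rests on few reads, most of them of mouse 2, although the call was kept without any single library (log2 fold change 3.65 ± 0.94 SE, edgeR adjusted p = 0.0116). Nfe2l2 was at 616, 403, 733 and 527 CPM in liver and 398, 390.3, 482 and 402 CPM in peritoneal stroma and was not called (log2 fold change 0.40 ± 0.16 SE, edgeR adjusted p = 0.0884). Gclc, Gclm, Slc7a11, Hmox1, Srxn1 and Nqo1 were not called either (0.37 ± 0.14, 0.14 ± 0.15, 0.73 ± 0.36, 0.15 ± 0.23, -0.23 ± 0.18 and -0.55 ± 0.38, edgeR adjusted p = 0.0654 to 0.659). With the mouse as a block, Nfe2l2 and Gclc were called higher in liver stroma (adjusted p = 0.0367 and 0.0200), Prdx1 was called lower (log2 fold change -0.22, 0.0223) and Keap1 was not called (0.0584). Without any 1 of 6 libraries each, Txnrd1 (all but liver stroma 2 and peritoneal stroma 4, edgeR adjusted p = 0.0509 to 0.0815) and Keap1 (all but liver stroma 2 and peritoneal stroma 4, 0.0586 to 0.116) were no longer called, and G6pdx was not without any of 5 (liver stroma 3 or 4, peritoneal stroma 2, 3 or 4, 0.0692 to 0.0833). Leaving out liver stroma 2 brought calls for Nfe2l2 (0.0140) and Slc7a11 (0.0286), and leaving out liver stroma 3 for Gclc (0.0271).

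Cell type markers differed between the 2 stromas. All 8 fibroblast markers were over 1 CPM in every stroma library, but summed to 4126 to 8361 CPM in the liver and 54717 to 83133 CPM in the peritoneum. The 5 markers of Kupffer cells, the resident macrophages of the liver, summed to 212 to 567 CPM in liver stroma and 5.58 to 35.2 CPM in peritoneal stroma, where Clec4f was at 0. Leukocyte markers summed to 3322 to 4079 CPM in the liver and 2186 to 2641 CPM in the peritoneum, and 17 hepatocyte markers to 1930 to 2570 CPM and 1073 to 1646 CPM. Most of the hepatocyte sum was Trf, at a mean of 1901 CPM in liver and 1256 CPM in peritoneal stroma. Each of the 17 had the higher mean in liver stroma. The gap was small for Apob (21.2 and 17.6 CPM) and wide for Alb (55.8 and 0.00866 CPM) and Fgb (39.3 and 0.0187 CPM). The 9 markers of hepatic progenitors and epithelium, which are higher in tumour cells, summed to 1325 to 1681 CPM in liver stroma. In peritoneal stroma they summed to 711 to 1177 CPM, without overlap. The part of these cell types in the differences between the stromas was not tested. Of 69 other genes tested, 9 were higher and 14 lower in liver stroma, with the largest differences in Dpep1 (-6.87), Sod3 (-5.18), Gpx7 (-2.84) and Gpx8 (-2.48).

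**Figure D4:**
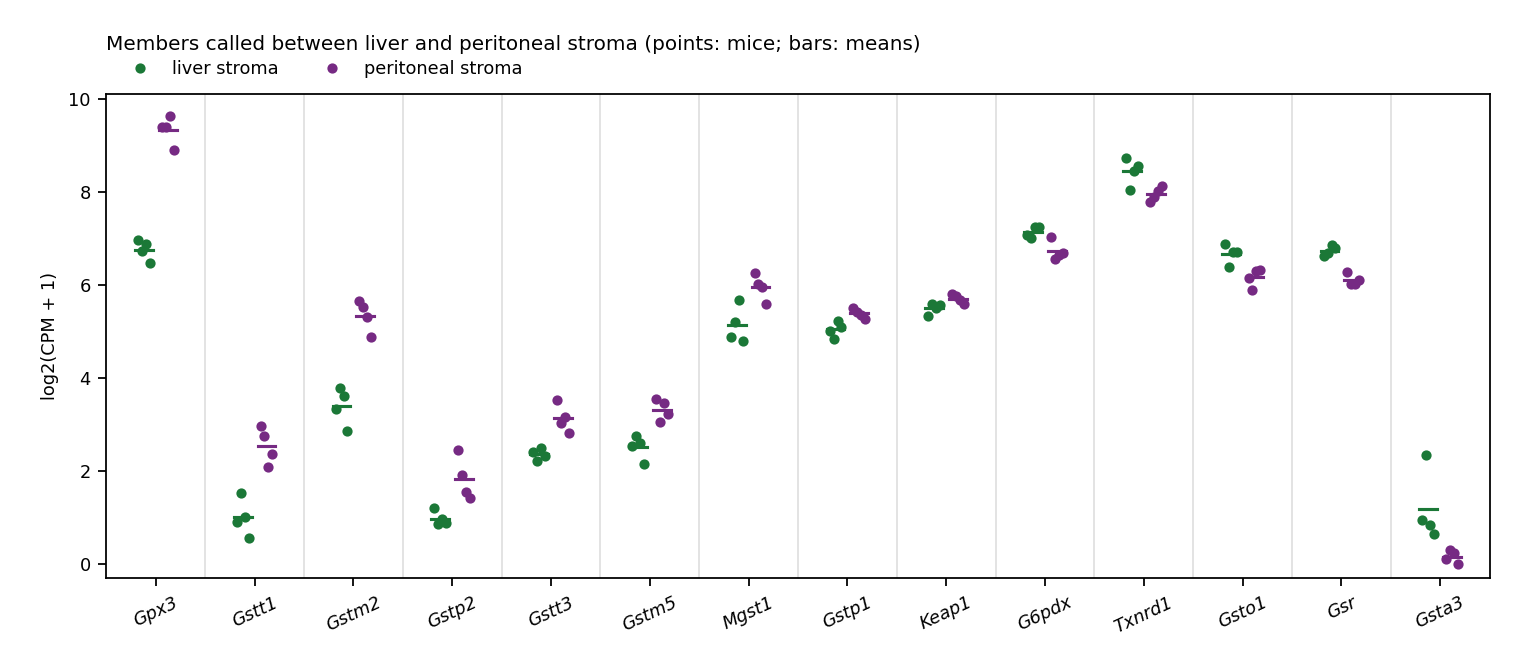
log2(CPM + 1) of the 14 members called between liver and peritoneal stroma, ordered by log2 fold change; points are the 4 mice of each site and bars their means. Gpx3, Gstt1 and Gstm2 are higher in all 4 peritoneal samples, Gsr and Gsto1 in all 4 liver samples, and Gsta3 in liver stroma is spread widely with mouse 2 on top.

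Tumour cells of the liver and of the peritoneum were compared to ask whether they differ by site. By RT-qPCR the study found a higher mean Ras G12V level in liver than in peritoneal tumour cells. Site and oncogene level cannot be told apart in this comparison. Of 27 members tested, 1 was called higher in liver tumour cells and 2 lower, against 1.32% and 1.53% of all genes. The median log2 fold change was -0.24 over the members and 0.00 over all genes. The samples of the 2 sites did not overlap in 33.3% of the members and 12.1% of all genes tested. Hmox1 was at 66.5, 88.0, 90.9 and 84.3 CPM in liver and 61.9, 37.9, 31.6 and 44.5 CPM in peritoneal tumour cells, without overlap (log2 fold change 0.90 ± 0.19 SE, edgeR adjusted p = 0.0395). Gss was at 66.2, 55.3, 70.5 and 63.8 CPM in liver and 86.3, 85.5, 97.6 and 111 CPM in peritoneal tumour cells, where every sample was higher (log2 fold change -0.58 ± 0.10 SE, edgeR adjusted p = 0.0238). Gsto1 was also higher in every peritoneal sample, at 172, 173, 165 and 197 CPM against 143, 116, 142 and 132 CPM in the liver (log2 fold change -0.41 ± 0.09 SE, edgeR adjusted p = 0.0365). With the mouse as a block, only Gss was called, and Hmox1 and Gsto1 had an adjusted p of 0.0810 and 0.0634. Hmox1 and Gsto1 were not called without any 1 of 6 libraries (liver tumour cells 2, 3 or 4 and peritoneal tumour cells 2, 3 or 4, edgeR adjusted p = 0.0645 to 0.127 and 0.0519 to 0.113), nor Gss without liver tumour cells 2 or 4 or peritoneal tumour cells 3 (0.0509 to 0.0828), so that the number of members called ran from 0 (without liver tumour cells 2 or 4) to 6 (without peritoneal tumour cells 1) and was 1 without liver tumour cells 3 or peritoneal tumour cells 2, 3 or 4. Hmox1 is higher in stroma than in tumour cells, and stromal markers differed between the tumour cell libraries of the sites: the 5 Kupffer cell markers summed to 2.42 to 8.48 CPM in the liver and 0.0576 to 2.06 CPM in the peritoneum, and the 8 fibroblast markers to 41.5 to 62.6 CPM and 220 to 1523 CPM. The 9 general macrophage markers summed to 421 to 503 CPM in the liver and 339 to 633 CPM in the peritoneum. Among these, Mrc1 and Cd68 had the higher mean in liver tumour cells. The rest had the lower mean there, such as Lyz2 (7.10 and 28.9 CPM), C1qa (3.84 and 12.1 CPM) and Csf1r (5.65 and 12.4 CPM). The part of stromal RNA in the difference of Hmox1 was not tested.

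The peritoneal tumour cells of mouse 1, which held the most fibroblast marker RNA, also held the most Gpx3 (18.5, 2.88, 3.63 and 2.47 CPM in mice 1 to 4), Mgst1 (2.59, 0.353, 0.461 and 0.111 CPM) and Gstm2 (2.22, 0.951, 1.02 and 0.664 CPM) of the peritoneal tumour samples. These 3 genes are high in peritoneal stroma, none was called between the tumour cells of both sites (edgeR adjusted p = 0.121, 0.258 and 0.121), and the part of stromal RNA in them was not tested. Without that library Gpx3 was called lower in liver tumour cells (log2 fold change -1.07, edgeR adjusted p = 0.0363), as was Gstm1 (-0.92, 0.0438), which had an adjusted p of 0.0523 with it and was also called without peritoneal tumour cells 3 (-1.26, 0.0231). Slc7a11 was at 8.55, 3.22, 3.94 and 3.81 CPM in liver and 4.81, 1.77, 1.92 and 1.96 CPM in peritoneal tumour cells, with mouse 1 the highest at both sites (log2 fold change 0.96 ± 0.41 SE, edgeR adjusted p = 0.225), and was called higher in the liver without peritoneal tumour cells 1 (log2 fold change 1.41, adjusted p = 0.0398). Of 65 other genes tested, 1 was higher and 3 lower in liver tumour cells, namely Ggt7 (0.92), Sod3 (-3.84), the exporter Abcc3 (-0.57) and the isocitrate dehydrogenase Idh1 (-0.51).

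Whether the site difference itself differed between tumour cells and stroma was tested by an interaction over all 16 sorted samples. None of 34 members tested was called in the positive and 5 in the negative direction, against 6.84% and 7.54% of all genes, and the median was -0.44 over the members and -0.12 over all genes. The 5 were Gsto1, Gclc, Gss, Gpx1 and Gsr, which were relatively lower in the liver in tumour cells than in stroma. For Gsto1 the liver exceeded the peritoneum in stroma and fell short of it in tumour cells, which gave a difference of -0.96 ± 0.16 on the log2 scale (SE, edgeR adjusted p = 0.000863). For Gss the stromas were close to each other (0.11 ± 0.11) and the tumour cells apart (-0.58 ± 0.10), a difference of -0.77 ± 0.15 (adjusted p = 0.00329). Gclc differed by -0.78 ± 0.18 (adjusted p = 0.00859), Gpx1 by -0.61 ± 0.15 (0.0118) and Gsr by -0.45 ± 0.13 (0.0283). The call of Gsr was lost without any 1 of 10 libraries (adjusted p = 0.0518 to 0.143; liver tumour cells 2, 3 and 4, peritoneal tumour cells 1 and 4, liver stroma 3 and 4 and peritoneal stroma 2, 3 and 4), and that of Gpx1 without peritoneal stroma 2 (0.0540). The number called ran from 3 (without peritoneal stroma 2) to 9 (without liver stroma 2 or peritoneal stroma 1). Without peritoneal tumour cells 1, Hmox1 was called in the positive direction (0.98, adjusted p = 0.0355), Nfe2l2 without liver stroma 2 in the negative direction (-0.60, 0.0128), and Txnrd1, also negative, without liver tumour cells 1, peritoneal tumour cells 4 or liver stroma 2 (0.00820 to 0.0453). Gpx3 was called in the positive direction without peritoneal tumour cells 1 (1.58, adjusted p = 0.00350). Gpx4 was called in the negative direction with the mouse as a block (-0.43, adjusted p = 0.00834). Among 70 other genes, 4 were called in the positive and 10 in the negative direction, led by Cbs (-3.37), Gpx8 (2.12), Ugt1a6a (1.74) and Abcc2 (-1.70).

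**Figure D5:**
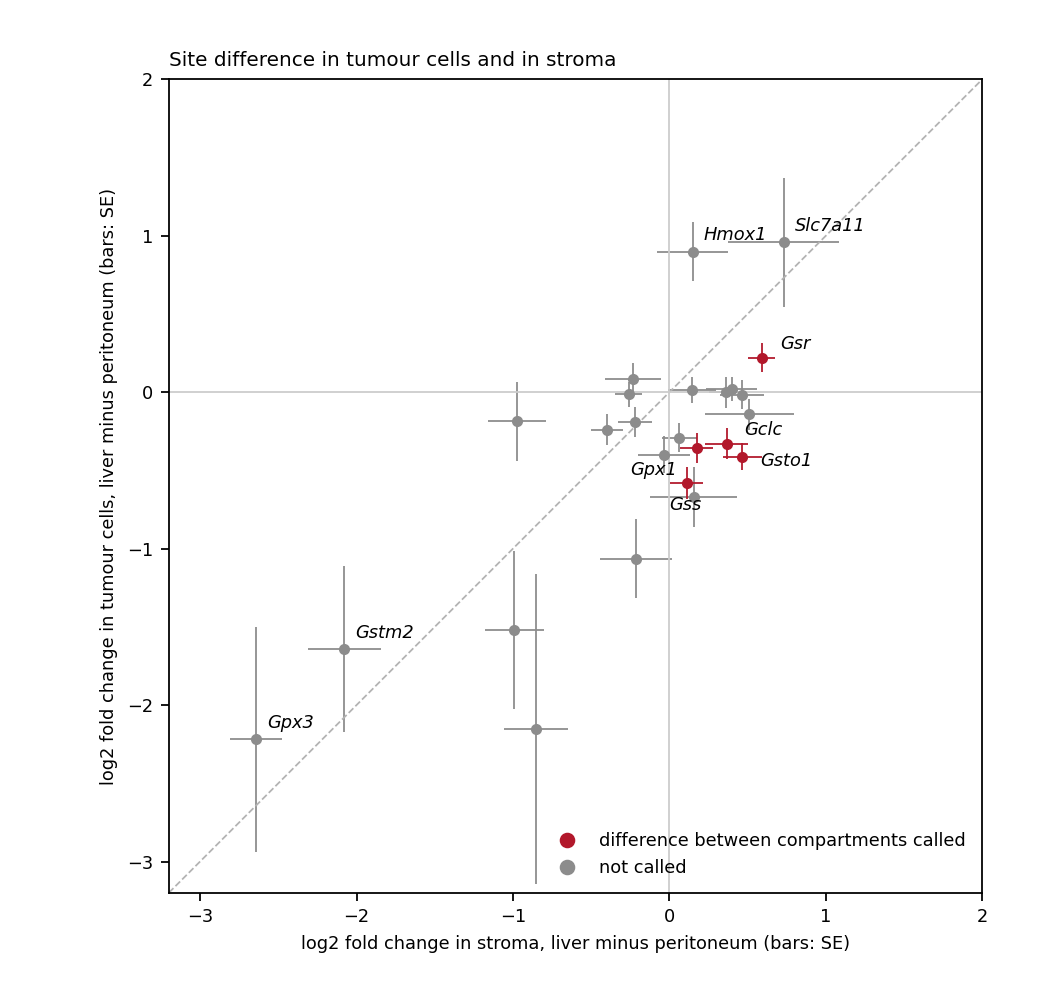
log2 fold change between liver and peritoneum in stroma (horizontal axis) and in tumour cells (vertical axis) for the 25 members tested in both; points are edgeR estimates over 4 mice, bars their SE, and the dashed line marks equal differences. The 5 members in red, whose difference between the compartments was called, lie below the line.

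Liver tumour cells were set beside cultured RasHIGH cells to compare the cells in the tumour and on the plate. The comparison joins growth in the host, the Ras level and origin of the cells, dissociation and sorting, and sequencing lane, which cannot be told apart. Tumour cells were on lanes 1 to 3 and RasHIGH cultures on lane 4. The study reports a higher Ras G12V level in tumour cells than in the cells before injection, and the labels do not give the injected population. Of 26 members tested, 2 were called higher in tumour cells and 16 lower, and over all genes 23.3% and 22.4%. The median log2 fold change was -0.62 over the members and -0.01 over all genes. The 2 groups did not overlap in 69.2% of the members and 48.8% of all genes tested. Slc7a11 was at 199, 67.8 and 52.3 CPM in RasHIGH cultures and 8.55, 3.22, 3.94 and 3.81 CPM in liver tumour cells (log2 fold change -4.43 ± 0.53 SE, edgeR adjusted p = 0.000271). Gsta1 was at 12.1, 7.88 and 4.10 CPM in culture and 1.16, 0.480, 0.757 and 0.640 CPM in the tumour (log2 fold change -3.36 ± 0.41 SE, edgeR adjusted p = 0.000303). Gstm1 was at 22.7, 18.4 and 5.73 CPM in culture and 2.30, 1.78, 2.64 and 2.34 CPM in the tumour (log2 fold change -2.78 ± 0.41 SE, edgeR adjusted p = 0.000817). In all 3 genes the lowest culture was above the highest tumour sample. Gstm2, Gsto1 and Gsta4 were lower, with log2 fold changes of -2.05 ± 0.50, -1.54 ± 0.13 and -1.33 ± 0.22.

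All members of synthesis and reduction but Gsr were lower in the tumour cells, with log2 fold changes of -0.81 ± 0.21 for Gclc, -0.95 ± 0.11 for Gclm, -0.38 ± 0.13 for Gss and -1.13 ± 0.16 for G6pdx beside that of Slc7a11, while Gsr was not called (log2 fold change -0.26 ± 0.14 SE, edgeR adjusted p = 0.174). Gstp1, Gstm5, Mgst3, Gpx4, Txnrd1 and Nfe2l2 were lower as well (-1.20 ± 0.18, -1.12 ± 0.20, -0.59 ± 0.18, -0.64 ± 0.12, -0.81 ± 0.12 and -0.40 ± 0.10 on the log2 scale). The 2 higher members were peroxidases. Gpx3 was at 0.0379, 0.129 and 0.225 CPM in culture (9 reads in all) and 1.09, 1.44, 1.21 and 2.21 CPM in the tumour (log2 fold change 3.51 ± 0.54 SE, edgeR adjusted p = 0.000795), a ratio of 11.6 with a 95% counting interval of 5.97 to 25.6. Gpx1 was at 79.9, 103 and 115 CPM and 164, 132, 178 and 159 CPM (log2 fold change 0.67 ± 0.15 SE, edgeR adjusted p = 0.00713). Fibroblast markers summed to 1.03 to 1.36 CPM in RasHIGH cultures and 41.5 to 62.6 CPM in liver tumour cells, and Gpx3 and Gpx1 are both higher in stroma than in tumour cells. The part of stromal RNA in these values was not tested. The calls of Mgst3 (without RasHIGH 2 or 3 or liver tumour cells 2 or 3, edgeR adjusted p = 0.0757 to 0.0940) and Gss (without RasHIGH 3 or any liver tumour library, 0.0587 to 0.107) were lost, and Hmox1 (log2 fold change 0.77 ± 0.32 SE, edgeR adjusted p = 0.0766) was called higher in the tumour without RasHIGH 1 (log2 fold change 1.32, 0.000104). Without the same RasHIGH 1, Gsr and Prdx1 were called lower in the tumour (log2 fold change -0.39 and -0.45, edgeR adjusted p = 0.0175 and 0.00858). Keap1 and Srxn1 were not called (-0.10 ± 0.10 and -0.15 ± 0.14). Of 64 other genes tested, 14 were higher and 26 lower in tumour cells, among them the exporter Abcc2 (-5.63), Ggct, which acts on glutathione breakdown products (5.27), the aldehyde dehydrogenase Aldh3a1 (-5.13) and the metallothionein Mt2 (4.98).

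Nfe2l2 and Keap1 themselves were not called in culture. Nfe2l2 was at 233, 223 and 268 CPM in BMEL WT, 180.0, 252 and 163 CPM in RasLOW and 244, 198 and 207 CPM in RasHIGH cells and was called in neither Ras population (log2 fold change -0.31 ± 0.20 and -0.20 ± 0.13 against BMEL WT, edgeR adjusted p = 0.419 and 0.331), though it was in RasLOW cells without RasLOW 2 (-0.54, adjusted p = 0.0256). Keap1 ranged from 54.6 to 79.2 CPM over the 9 cultures. Of the genes known to respond to Nrf2, Gclm ranged from 63.8 to 107 CPM, Srxn1 from 29.1 to 58.4 CPM and Nqo1 from 0.0719 to 1.51 CPM over the cultures, and none of these 3 was called in any comparison among them. Hmox1 was at 34.3, 39.7 and 28.3 CPM in BMEL WT, 27.5, 33.0 and 32.3 CPM in RasLOW and 79.0, 39.7 and 26.3 CPM in RasHIGH cells, where 1 culture exceeded all others (log2 fold change 0.46 ± 0.37 SE, edgeR adjusted p = 0.424, against BMEL WT). The same RasHIGH culture held the most Slc7a11 and Gclc of its group. In RasHIGH cells without that culture, Gclc was called lower than in BMEL WT (log2 fold change -0.99, edgeR adjusted p = 0.00333), while with it the samples overlapped (log2 fold change -0.72 ± 0.23 SE, edgeR adjusted p = 0.0638). Between the tumour cells of both sites, Nfe2l2, Keap1, Gclm, Txnrd1 and Srxn1 had log2 fold changes between -0.02 and 0.09, and none was called.

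Near-identical paralogs limit some of these values, since the program that assigned reads to genes is not given in the sources used here. The coding sequences of Gstp1 and Gstp2 were 98.1% identical with a shared stretch of 303 bases, those of Gsta1 and Gsta2 97.5% with 196 bases, and those of Gstm1 and Gstm3 89.5% with 112 bases, so the single values of these genes are uncertain. Sums over each family were therefore tested in place of their genes. The Gstm sum fell in RasHIGH cells (log2 fold change -1.58 ± 0.35, edgeR adjusted p = 0.0175) and was not called in RasLOW cells (-1.52 ± 0.51, edgeR adjusted p = 0.133). Against stroma, liver tumour cells held less of the Gstm and Gstt sums (-3.05 ± 0.11, edgeR adjusted p = 1.14e-10, and -4.22 ± 0.23, edgeR adjusted p = 5.43e-09) and more of the Gsta and Gstp sums (2.61 ± 0.17, edgeR adjusted p = 2.64e-08, and 0.79 ± 0.11, edgeR adjusted p = 3.52e-05). Liver stroma held less than peritoneal stroma of the Gstm (-0.79 ± 0.16, edgeR adjusted p = 0.00447), Gstp (-0.45 ± 0.10, edgeR adjusted p = 0.00890) and Gstt sums (-0.97 ± 0.15, edgeR adjusted p = 0.000866). The Gsta sum, made up almost wholly of Gsta4, was not called in RasLOW or RasHIGH cells (-0.32 ± 0.43, edgeR adjusted p = 0.735, and -0.04 ± 0.28, edgeR adjusted p = 0.942).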

How the data were processed

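The authors deposited 1 table of raw read counts per gene, with 1 column per library, from mRNA libraries made with a NuGEN kit and sequenced on a HiSeq 2500. The study's text states alignment with TopHat2 to mm9, while the submitters' processing notes name Bowtie 0.12.2, mm8 and mm10. The program, annotation and strand setting used for counting are not given in the sources used here. Total counts were 20818989 to 51241336 per library. No libraries held identical values.

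The table has Gene symbols but no lengths. Lengths for RPKM and gene positions were therefore taken from the GENCODE annotation of mm9, and promoters from RefSeq on GRCm38.p6, and coordinates of the builds were never mixed. Groups were compared with edgeR 4.0.16 in R 4.3.3 (TMM scaling, filterByExpr with a minimum count of 10, glmQLFit and glmQLFTest) on the libraries of the groups compared, and p-values were adjusted by Benjamini-Hochberg over all genes tested. Tests are two-sided. SE is the log2 fold change divided by the square root of F. The test was checked on simulated data for most pairs of groups, but not for the interaction. The simulated counts had the same dispersion for every gene and no effect of single cultures or mice, so the check does not cover such differences. The replicates are cultures or mice, as the study's text describes them.

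The same 4 mice gave all sorted samples, so mouse numbers pair them. The correlation of same-mouse deviations from the group means was 0.12 to 0.32 between tumour cells and stroma of the liver, 0.07 to 0.30 in the peritoneum, -0.01 to 0.39 between stromas and -0.17 to 0.06 between tumour cells of both sites. The fit without the mouse as a block was the one reported, and blocked values stand beside results that they change.

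All called members were named, beginning with those of largest log2 fold change, together with 9 Nrf2 pathway genes whether called or not, and up to 4 called genes of the list of 71 other redox genes with a mean of at least 1 CPM in 1 group. Members and lists were chosen with earlier results of these data known. Alternatives were DESeq2 1.42.0, RLE scaling, other edgeR tests, other filters and thresholds, a fit of all 25 libraries, the replicate block, lane 4 only, and each library left out.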

Additional observations from a re-analysis of the deposited data

Results flagged for a closer look

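Among 109 groups of 4 samples examined, 8 held 1 library far from the other 3, and chance alone sets apart about 1 in 20 groups. Gsta3 was at 4.03 CPM in the liver stroma of mouse 2, against 0.555 to 0.919 CPM in the other mice. In the liver stroma of mouse 3, Gstm4 was at 9.74 CPM (7.68 to 7.93 CPM in the others) and Gstk1 at 4.41 CPM (3.21 to 3.37 CPM). Gpx3 was at 18.5 CPM in the peritoneal tumour cells of mouse 1, against 2.47 to 3.63 CPM, in the library with the most fibroblast marker RNA of its group. Slc7a11 stood apart in the tumour cells of mouse 1 at both sites, at 8.55 CPM in the liver (3.22 to 3.94 CPM in the others) and at 4.81 CPM in the peritoneum (1.77 to 1.96 CPM). Nfe2l2 was at 482 CPM in the peritoneal stroma of mouse 3, against 390.3 to 402 CPM, and Prdx1 at 464 CPM in the peritoneal tumour cells of mouse 3, against 422 to 429 CPM.

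The difference between liver and peritoneum was not the same in tumour cells and stroma for 5 members, by the edgeR interaction test. On the log2 scale, the site difference in tumour cells minus that in stroma was -0.96 for Gsto1, -0.78 for Gclc, -0.77 for Gss, -0.61 for Gpx1 and -0.45 for Gsr. All are lower values for the liver in tumour cells relative to stroma, and the call of Gsr was lost without any 1 of 10 libraries.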

How the results depend on the processing

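The alternatives gave 2816 log2 fold changes of called members and Nrf2 pathway genes, of which 160 lost and 30 gained a call. None of the called differences took the other sign, while 39 values of 16 differences that were not called did, such as Hmox1 in RasHIGH cells (0.46, and -0.07 without RasHIGH 1) and Nqo1 there (0.67, lowest -0.04). The number of members called in RasLOW cells went from 3 to 7 with DESeq2, 5 with the exact test, 9 in the fit of all 25 libraries, 1 with the replicate block and 1 in lane 4. In RasHIGH cells it went from 10 to 5 under the study's thresholds and was 8 with the replicate block. Those thresholds were applied here as an unadjusted p under 0.01 and a log2 fold change over 1.5 in cultures, or under 0.05 and over 1 elsewhere. The study's own p-values may have been adjusted, since its list of gradually changing genes gives adjusted values. Its removal of genes with low RPKM was not applied here. Between RasHIGH and RasLOW cells the number of members called went from 0 to 2 in the fit of all libraries. Between tumour cells of both sites it went from 3 to 10 with DESeq2, 10 with the exact test and 1 with the replicate block, and the 4 called under the study's thresholds (Gpx3, Gstm2, Gstt3 and Gstm1, all lower in the liver) include none of the 3. Under the same thresholds it went from 14 to 5 between stromas, from 18 to 10 between liver tumour cells and RasHIGH cultures, and from 5 to 0 for the interaction, which was 3 in the fit of all libraries. The causes were not tested. Without 1 library, counts ran from 1 to 10 in RasLOW, 5 to 12 in RasHIGH, 0 to 0 between them, 0 to 6 between tumour cells, 11 to 16 between stromas, 32 to 33 and 31 to 31 between tumour cells and stroma of liver and peritoneum, 16 to 21 against RasHIGH cultures and 3 to 9 for the interaction.

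Replicate numbers of cultures share only a number: correlations of same-numbered deviations were -0.30 to -0.02, -0.15 to 0.18 and -0.69 to 0.36. With the replicate block, 1 and 8 members were called in RasLOW and RasHIGH cells. The block by mouse changed the calls of Hmox1 and Gsto1 between tumour cells, of Nfe2l2, Gclc, Prdx1 and Keap1 between stromas and of Gpx4 in the interaction, and no other call of a member. It could not be used against RasHIGH cultures, and the exact test was not run for the interaction. Over all genes, the count in RasLOW cells went from 801 to 1622 with DESeq2, 1352 with the exact test, 2484 in the fit of all libraries, 413 with the block and 22 in lane 4. Between tumour cells of both sites the count over all genes went from 373 to 1152 with DESeq2. It was 945 with the exact test, 221 with the block and 442 under the study's thresholds. Between RasHIGH and RasLOW cells it went from 19 to 952 in the fit of all libraries. Those thresholds took it from 2843 to 1206 in RasHIGH cells and from 5028 to 2122 between stromas. They took it from 5925 to 3061 against RasHIGH cultures and from 2204 to 1576 for the interaction. Depth limits the members under 1 CPM, whose fold changes rest on few reads.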
